A study of Homo sapiens with 2 samples.

Results

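The cornified envelope and S100 genes are 48 of the 60616 genes measured in HSC-3, a cell line derived from a human squamous cell carcinoma of the tongue. They were listed by symbol and fall into 5 groups by role, namely 14 S100 calcium-binding proteins, 13 envelope precursors and differentiation markers, 4 transglutaminases, 6 kallikreins and 11 protease inhibitors. The rule names symbols and sets no limit on a measured value. The study asked how ferroptotic stress that leaves cells alive affects head and neck squamous carcinoma cells, ferroptosis being a form of cell death driven by iron-dependent lipid peroxidation. FIN56 is a small molecule that promotes loss of GPX4, the enzyme that reduces lipid peroxides, and that also acts on the mevalonate pathway. One library came from HSC-3 cells given 0.1% DMSO, the solvent, and the other from HSC-3 cells given 1 µM FIN56 for 48 h. The labels state the time for the FIN56 library only. Both cultures were of the same line, in DMEM with 5% fetal bovine serum and 1% penicillin and streptomycin.

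Each condition had 1 library, so no test was possible, and a difference due to FIN56 cannot be told apart from a difference between 2 cultures. The libraries held 70184517 and 73062209 expected counts for DMSO and FIN56, an expected count being the number of reads assigned to a gene, with reads that match several genes divided among them. Levels are given as FPKM, which scales the reads for gene length and library size, and the ratio is always FIN56 over DMSO. A ratio of 1.5 or more is called higher and one of 1/1.5 or less lower. The 95% intervals are exact Clopper-Pearson intervals of the count ratio scaled by library totals. They cover counting error only and hold nothing of the spread between cultures. No molecular identifiers tell reads of 1 molecule apart, so copies of 1 molecule may have been counted as separate reads. The libraries matched the label of a squamous epithelial line, because all 9 epithelial markers were present, with FPKM values from 43.99 to 2078 in DMSO and from 43.8 to 1647 in FIN56. Of 5 leukocyte markers, 3 were at 0 in both libraries, PTPRC and CD3E among them. CD68 was present at 57.3 FPKM in DMSO and 24.6 FPKM in FIN56, and CD14 at 3.62 and 5.15. Together 4 neutrophil markers reached an FPKM of 0.02 in each library, and 3 endothelial markers reached 0.08. All 4 fibroblast markers had at least 10 counts in both libraries and together reached 5.10 FPKM in DMSO and 2.92 FPKM in FIN56. The highest of them was COL1A1, at 4.25 and 2.19.

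The cornified envelope is the protein and lipid shell that replaces the plasma membrane of the outermost keratinocytes of stratified epithelia. Transglutaminases cross-link precursors such as involucrin, small proline-rich proteins, envoplakin and periplakin into this shell, and kallikrein serine proteases, held in check by inhibitors such as LEKTI, cut the junctions through which surface cells are shed. Most S100 genes lie beside the envelope genes on chromosome 1, and their products bind calcium and act inside and outside the cell, several of them in stressed or inflamed epithelium.

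Promoter sequences are shown for 4 members, namely S100A2 and KLK5, the lower members with the most reads, KLK10, a second kallikrein, and SERPINB2, the higher member with the most reads. Each is the 250 bases before a RefSeq transcript start in build GRCh38.p14, written 5′ to 3′ on the strand of the gene. The windows are chr1:153565845-153566094 on the minus strand for S100A2, chr19:50953039-50953288 on the minus strand for KLK5, chr19:51019862-51020111 on the minus strand for KLK10 and chr18:63887455-63887704 on the plus strand for SERPINB2. Capitals mark matches to the AP-1 letters TGANTCA, searched on both strands, and to the TATA box letters TATAAA, searched on the strand of the gene.
S100A2: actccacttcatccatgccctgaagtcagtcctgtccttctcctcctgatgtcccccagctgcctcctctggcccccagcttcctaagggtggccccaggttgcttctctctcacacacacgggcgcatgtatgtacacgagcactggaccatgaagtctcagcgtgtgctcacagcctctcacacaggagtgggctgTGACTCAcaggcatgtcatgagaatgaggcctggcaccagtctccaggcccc
KLK5: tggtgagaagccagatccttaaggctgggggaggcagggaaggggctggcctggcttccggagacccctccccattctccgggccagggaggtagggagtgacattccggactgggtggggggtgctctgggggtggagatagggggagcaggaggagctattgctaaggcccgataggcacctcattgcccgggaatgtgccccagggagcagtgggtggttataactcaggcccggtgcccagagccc
KLK10: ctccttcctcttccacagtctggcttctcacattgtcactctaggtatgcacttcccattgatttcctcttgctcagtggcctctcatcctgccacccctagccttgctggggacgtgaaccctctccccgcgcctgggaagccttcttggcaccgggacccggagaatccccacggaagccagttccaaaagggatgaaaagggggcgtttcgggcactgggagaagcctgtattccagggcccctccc
SERPINB2: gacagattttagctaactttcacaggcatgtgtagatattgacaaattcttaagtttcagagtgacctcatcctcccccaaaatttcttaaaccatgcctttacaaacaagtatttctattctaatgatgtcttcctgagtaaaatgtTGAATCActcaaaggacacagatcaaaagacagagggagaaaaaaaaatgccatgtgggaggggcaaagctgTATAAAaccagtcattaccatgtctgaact
The S100A2 match begins at -52 from the start, and the SERPINB2 matches begin at -102 for AP-1 and at -30 for the TATA box. S100A2 has 2 RefSeq windows, of which 1 holds the AP-1 letters. The KLK5 and KLK10 sequences hold neither motif.

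RefSeq windows from 250 bases before to 50 after a start were at hand for 36 of the 48 members, 46 windows in all. The 12 members with no window were CSTA, CSTB, EVPL, KLK8, LY6D, PI3, PPL, SLPI, SPRR2D, SPRR2E, TGM1 and TGM2. The AP-1 letters stood in 13 of the 46 windows (28.3%), against 7.71% of the 35116 windows of all genes. Those 13 belonged to FLG, IVL, SPRR1A, SPRR1B, SPRR2A, SPRR3, SBSN, S100A2, S100A3, S100A12, SERPINB2, SERPINB5 and SERPINB13, which include higher and lower members, members between and SPRR3, which had no reads. The TATA box letters stood in 17 windows (37%), against 7.33% of all windows. The other motifs were near the share of all windows, with the C/EBP letters TTNNGCAA in 10.9% against 10.5%, the ETS letters GGAAGT in 21.7% against 22.8% and the antioxidant response element letters TGANNNNGC in 37% against 41.8%. The sterol regulatory element letters TCACNCCAC stood in 0 member windows and in 1.13% of all windows. These 4 motifs were searched on both strands, and an AP-1 match shared bases with an antioxidant response element match in 1 member window. None of the 9 windows of 5 kallikreins held the AP-1, TATA box, C/EBP or sterol letters, whereas 1 held the ETS and 3 the antioxidant response element letters. A match describes letters only, and no binding was measured.

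Most members were measured at similar levels in both libraries, the kallikreins were lower as a group, and a few protease inhibitors were higher. FPKM was above 0 in both libraries for 43 members. Of these, 8 (18.6%) were higher, against 14.7% of the 24454 genes above 0 in both, and 10 (23.3%) were lower, against 17.3%. The higher members were S100A13, IVL, SBSN, PI3, SLPI, SERPINB2, SERPINB3 and SERPINB4, and the lower ones were S100A2, SPRR2A, LY6D, TGM5 and the 6 kallikreins. The other 25 lay between the thresholds, and CNFN, SPRR1B and TGM2 were just outside the lower one, with FPKM ratios from 0.676 to 0.685. The median log2 FPKM ratio of the 43 was -0.0037, and that of all genes was 0. Many calls rested on few reads, so the same was counted over genes with 10 or more expected counts in each library. Of the 35 members that passed, 4 (11.4%) were higher, against 7.62% of 17372 genes, and 7 (20%) were lower, against 11.1%. The 6 kallikreins made up most of the lower members. In the other 42 genes, 2 of the 30 with at least 10 counts in both libraries were lower (6.67%) and 4 were higher (13.3%).

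**Figure D1:**
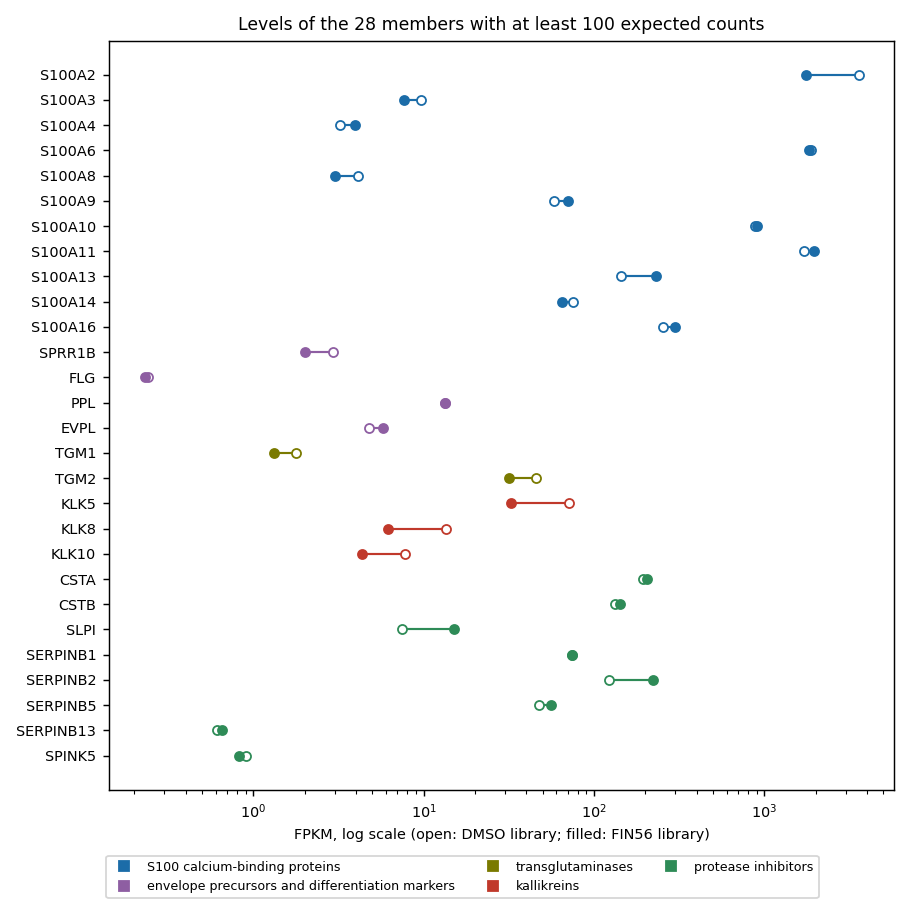
FPKM on a log axis for the 28 members with 100 or more expected counts over the pair of libraries, coloured by role, with open circles for the DMSO library and filled circles for the FIN56 library (1 library each, so no error bar). S100A2 spans 3579 to 1767, the 3 kallikreins shown all lie lower in FIN56, and SLPI, SERPINB2 and S100A13 lie higher.

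The S100 genes were the most abundant of the 48, and S100A2 differed most among those with many reads. S100A2, a calcium- and zinc-binding protein of basal epithelial cells that p63 and p53 are known to induce, had 99396 counts in DMSO and 51789 in FIN56. Its FPKM was 3579 in DMSO and 1767 in FIN56, a ratio of 0.494 (95% counting interval of the count ratio 0.495 to 0.506). It ranked 12th of all genes by FPKM in DMSO and 37th in FIN56, and it made up 41.6% of the summed S100 FPKM in DMSO and 24.8% in FIN56. S100A2 lies on the minus strand of chromosome 1 at 153561108 to 153567890, between S100A3 and S100A16, whose FPKM ratios were 0.791 and 1.18.

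The other abundant S100 genes were close to even. S100A6, calcyclin, measured 1885 FPKM in DMSO and 1835 FPKM in FIN56, a ratio of 0.974. S100A10, the annexin A2 partner p11, measured 886 FPKM in DMSO and 906 FPKM in FIN56, a ratio of 1.02. S100A11, calgizzarin, which is cross-linked into envelopes and binds annexin A1, measured 1702 FPKM in DMSO and 1945 FPKM in FIN56, a ratio of 1.14. Thus S100A2 stood above S100A6 and S100A11 in the DMSO library, by quotients of FPKM of 1.90 and 2.10, and slightly below both in the FIN56 library, by 0.963 and 0.908. Of the annexins, ANXA1 measured 738 FPKM in DMSO and 1083 FPKM in FIN56, a ratio of 1.47, and ANXA2 had 1542 in DMSO and 1341 in FIN56, a ratio of 0.870.

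S100A13 was the 1 higher S100 gene. This protein takes part in the release of FGF1 and interleukin-1α by a route outside the classical secretory pathway. It had 4768 expected counts in DMSO and 7506 in FIN56, and its FPKM was 144 in DMSO and 230 in FIN56, a ratio of 1.59. On counts the ratio was 1.51 (1.46 to 1.57), so the counting interval reaches below the threshold. Its counts were not whole, and it overlaps S100A1 on the opposite strand (38.2 counts in DMSO and 24.4 in FIN56) and a long noncoding RNA on its own strand (74.1 and 45.2). Both partners had far fewer counts than S100A13 and were lower in FIN56, and the part of shared reads in the ratio was not tested.

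The remaining S100 genes named here differed by less than 1.5-fold either way. S100A16 measured 255 FPKM in DMSO and 300.2 FPKM in FIN56 (ratio 1.18). S100A14, which like S100A16 is found in many carcinomas, measured 75.2 FPKM in DMSO and 64.6 FPKM in FIN56 (ratio 0.859). The inflammatory pair S100A8 and S100A9, the subunits of calprotectin, was not even: S100A9 measured 58.5 FPKM in DMSO and 70.4 FPKM in FIN56 (ratio 1.204, interval 1.13 to 1.28), whereas S100A8 had 4.10 in DMSO and 3.03 in FIN56 (ratio 0.739, interval 0.530 to 1.02). S100A9 exceeded S100A8 by a quotient of FPKM of 14.3 in DMSO and 23.2 in FIN56. In neutrophils both genes are abundant, and the neutrophil markers MPO and FCGR3B had at most 2 counts here.

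S100A4, known for its part in motility, measured 3.22 FPKM in DMSO and 3.96 FPKM in FIN56 (ratio 1.23, interval 0.9403 to 1.55). S100A3, a zinc-binding protein of the hair cuticle, measured 9.67 FPKM in DMSO and 7.65 FPKM in FIN56 (ratio 0.791, interval 0.684 to 0.909). These neighbours overlap on 1 strand, their counts were whole, and their ratios lay on opposite sides of 1. The low S100 genes were S100A7, psoriasin, with 42 counts in DMSO and 49.99 in FIN56, S100A12 with 10 and 12, and S100P with 0 and 4. S100A7 shares reads with S100A7A, and the 2 together had 44 counts in DMSO and 54 in FIN56 (ratio 1.18, interval 0.777 to 1.80). In all, 13 S100 genes were above 0 in both libraries, with 1 higher, 1 lower and a median log2 FPKM ratio of 0.19. The 2 calls are shares of 7.69% each, against 14.7% higher and 17.3% lower among all genes. The summed TPM, a length-scaled share of transcripts with the same total in each library, of the S100 genes was 12869 in DMSO and 10907 in FIN56, and without S100A2 it was 7515 in DMSO and 8206 in FIN56.

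**Figure D2:**
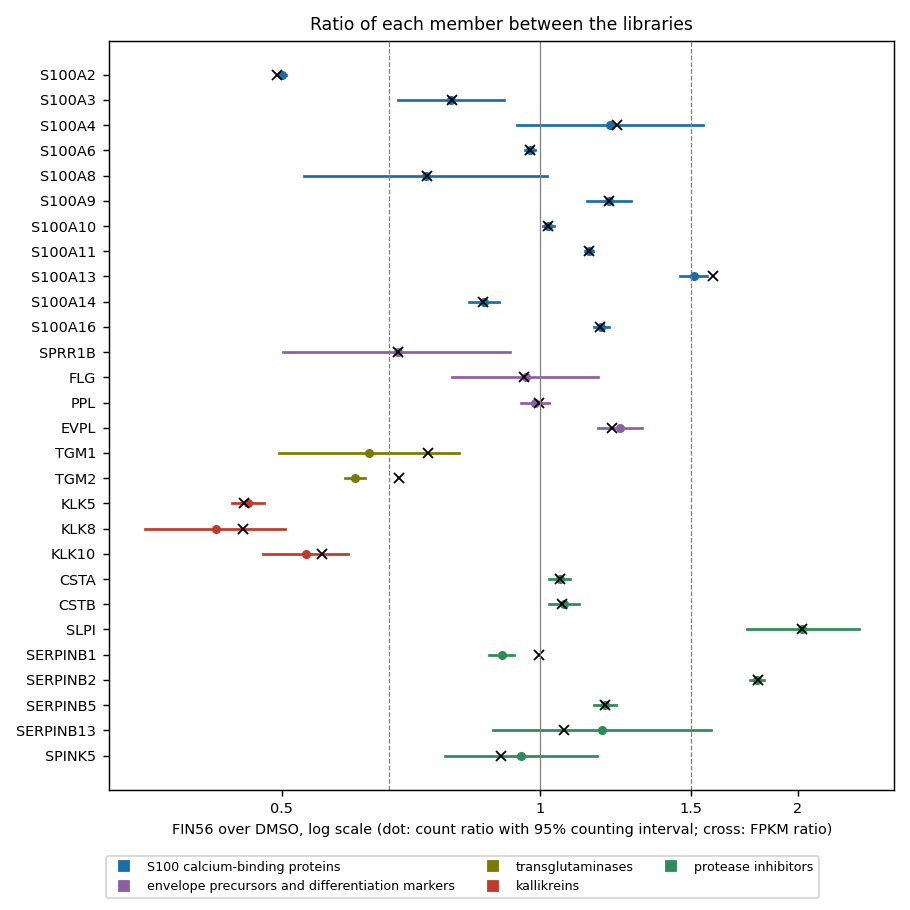
Ratio of FIN56 over DMSO on a log axis for the 28 members with at least 100 expected counts together, with dots for the count ratio, bars for its 95% counting interval, crosses for the FPKM ratio and dashed lines at 1.5 and 1/1.5. The intervals of SERPINB2 and SLPI lie above the upper line, and those of S100A2, TGM2, KLK5, KLK8 and KLK10 lie below the lower one.

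The envelope precursors were mostly near 0 in both libraries, and the plakins PPL and EVPL had the highest FPKM of the group. PPL, periplakin, which links intermediate filaments to the envelope and the desmosome, had 5464 counts in DMSO and 5617 in FIN56. Its FPKM was 13.35 in DMSO and 13.33 in FIN56, a ratio of 0.999 (interval 0.951 to 1.02). EVPL, envoplakin, its binding partner, measured 4.78 FPKM in DMSO and 5.80 FPKM in FIN56, a ratio of 1.21 (interval 1.17 to 1.32). PPL therefore exceeded EVPL by a quotient of FPKM of 2.79 in DMSO and 2.298 in FIN56. EVPL overlaps CDK3 (132.5 counts in DMSO and 73.2 in FIN56) and TEN1-CDK3 (148.87 and 31.10), both on the opposite strand. The strand setting of the counting is not given in the sources used here. For FLG, KLK10 and SPINK5, however, the non-whole counts add up to whole numbers with those of an RNA on the opposite strand. Reads there were therefore divided across strands. How far this affects the ratios was not tested.

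FLG, filaggrin, which bundles keratins in the granular layer, had 209.85 counts in DMSO and 210.49 in FIN56. Its FPKM was 0.24 and 0.23 (ratio 0.958, interval 0.790 to 1.17). FLG-AS1, a long noncoding RNA on the opposite strand, had 110.15 counts in DMSO and 93.51 in FIN56. Reads were divided between FLG and FLG-AS1 by estimate, and the part of this in the ratio was not tested. SPRR1B, a small proline-rich precursor, had 106.90 counts in DMSO and 75.96 in FIN56, an FPKM of 2.93 and 2 (ratio 0.683), just outside the threshold for lower. Its reads are split with its near copy SPRR1A (1.10 and 1.04 counts), and the pair summed to 108 counts in DMSO and 77 in FIN56 (ratio 0.685, interval 0.504 to 0.926).

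The other precursors and markers had too few reads to show a difference. IVL, involucrin, the scaffold of the envelope, had 4 counts in DMSO and 8 in FIN56. SPRR2A had 6 and 3, SPRR2D had 0 and 4, and SPRR2E and SPRR3 were at 0 in both libraries, where a count of 0 allows up to 3 counts. CNFN, cornifelin, had 31 counts in DMSO and 22 in FIN56, and LY6D, a surface marker of squamous differentiation, had 19 and 16. SBSN, suprabasin, had 8 and 9 counts, and it counted as higher by FPKM although its count ratio was 1.08. The envelope group had 10 genes above 0 in both libraries, of which 2 were higher and 2 lower. These are shares of 20% each, against 14.7% and 17.3% of all genes above 0 in both. The group's median log2 FPKM ratio was -0.12, and it had no call whose counting interval lay to one side of 1. Its summed TPM was 34.5 in DMSO and 34.8 in FIN56.

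**Figure D3:**
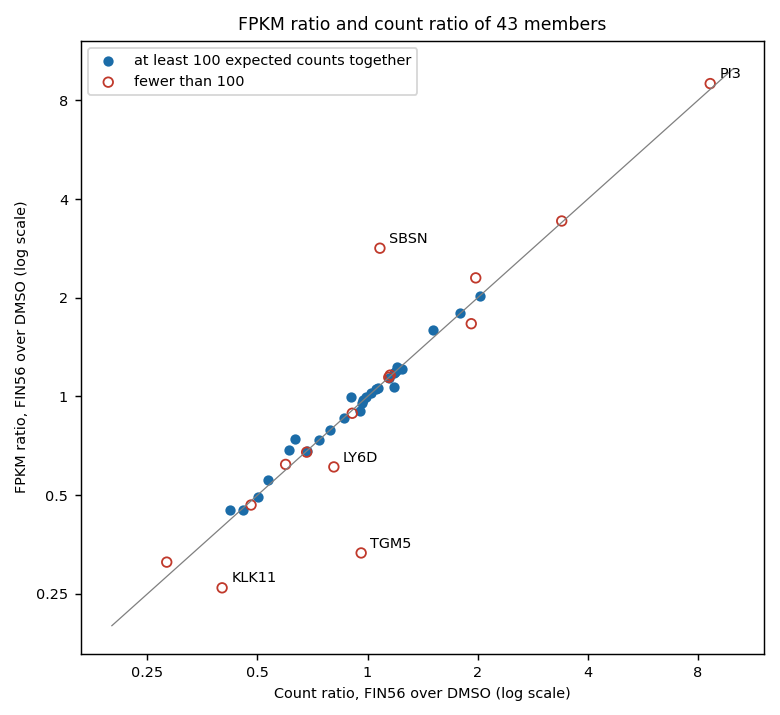
FPKM ratio against count ratio, both FIN56 over DMSO on log axes, for the 43 members above 0 in both libraries, with filled points for at least 100 expected counts together, open points for fewer and a line where both ratios are equal. Among the 28 filled points 23 lie within 0.1 on the log2 scale of the line, whereas SBSN, LY6D, TGM5 and KLK11, each with few reads, lie far from it.

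Among the transglutaminases, TGM2 carried nearly all reads, and its ratio was below 1 on both scales. TGM2, tissue transglutaminase, a cross-linking enzyme found in many cell types, had 13588 counts in DMSO and 8622 in FIN56, a count ratio of 0.609 (interval 0.593 to 0.626). Its FPKM was 45.9 in DMSO and 31.5 in FIN56, a ratio of 0.685, so TGM2 was past the threshold by counts and short of it by FPKM. TGM1, the membrane-bound keratinocyte enzyme that builds the envelope, had 176 counts in DMSO and 116 in FIN56, a count ratio of 0.633 (interval 0.497 to 0.805). Its FPKM was 1.78 in DMSO and 1.32 in FIN56, a ratio of 0.742. FPKM divides by a transcript length estimated in each library, and the count ratio does not. TGM2 exceeded TGM1 by a quotient of FPKM of 25.8 in DMSO and 23.8 in FIN56. TGM3, the soluble epidermal enzyme, was at 0 in both libraries, and TGM5 had 1 count in each, so its place among the lower members by FPKM rests on 2 reads.

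All 6 kallikreins were lower in the FIN56 library, against 17.3% of all genes above 0 in both libraries. Theirs was the only group of the 5 with every member past the threshold by FPKM. With rlog values, which draw differences toward 0, none of the kallikreins passed it. The same held for all 43 members with a value, so this result is not particular to the kallikreins. With a pseudocount of 1 FPKM, which draws the ratios of low genes toward 1, 3 of the 6 kallikreins passed. KLK5, which starts the cascade by activating other kallikreins in the upper epidermis, had 6648 expected counts in DMSO and 3160 in FIN56. Its FPKM was 71.7 in DMSO and 32.4 in FIN56, a ratio of 0.452 (interval 0.438 to 0.476). KLK5 held 83.4% of the kallikrein counts in DMSO and 82.3% in FIN56.

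KLK8, neuropsin, a trypsin-like protease of stratified epithelia, had 374 counts in DMSO and 163 in FIN56, and its FPKM was 13.6 and 6.13, a ratio of 0.451 (interval 0.346 to 0.504). KLK10, a kallikrein with little known protease activity, had 853 counts in DMSO and 474 in FIN56. Its FPKM was 7.81 and 4.35, a ratio of 0.557 (interval 0.476 to 0.598). A long noncoding RNA on the opposite strand had 60.25 counts in DMSO and 26.49 in FIN56. Reads were divided between this RNA and KLK10 by estimate. The other 3 kallikreins had few reads. KLK6 had 51 counts in DMSO and 15 in FIN56, KLK7, the chymotrypsin-like enzyme of desquamation, 37 and 23, and KLK11 12 and 5. The counting intervals of KLK5, KLK6, KLK8 and KLK10 lay wholly below 1, and those of KLK7 (0.339 to 1.03) and KLK11 (0.111 to 1.22) did not. The median log2 FPKM ratio of the 6 was -1.15, and their summed TPM was 141 in DMSO and 66.1 in FIN56, a ratio of 0.470.

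The kallikreins lie together on the minus strand of chromosome 19, from 50943303 to 51028039 in 84737 bases with 8 protein-coding genes. The neighbour KLK9, not a member, was lower too, with 149.51 counts in DMSO and 44.94 in FIN56 and an FPKM ratio of 0.306. The 8 further kallikreins of this region that are no members had few or no reads. Among them, KLK1 had 43 counts in DMSO and 42 in FIN56 (FPKM ratio 0.922), KLK14 had 8 and 13 (FPKM ratio 1.58), and the others had at most 3 in either library. KLK8 and KLK9 overlap on 1 strand and had counts that were not whole, so their reads are partly shared by estimate. Of the 32 protein-coding genes within 500 kb that are not kallikreins, 7 had at least 10 counts in both libraries, and their median FPKM ratio was 0.988. None of these 7 was higher and 2 were lower, where 7.62% and 11.1% of all genes with that many counts were. The 2 lower genes are named here after their values were seen. JOSD2 had 664 counts in DMSO and 399 in FIN56 (FPKM ratio 0.592), and VSIG10L had 61 and 28 (FPKM ratio 0.436). Thus 2 genes outside the kallikrein family were also lower, while EMC10 (ratio 0.988), ETFB (0.996) and CTU1 (1.40) in the same region were not lower by the threshold.

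**Figure D4:**
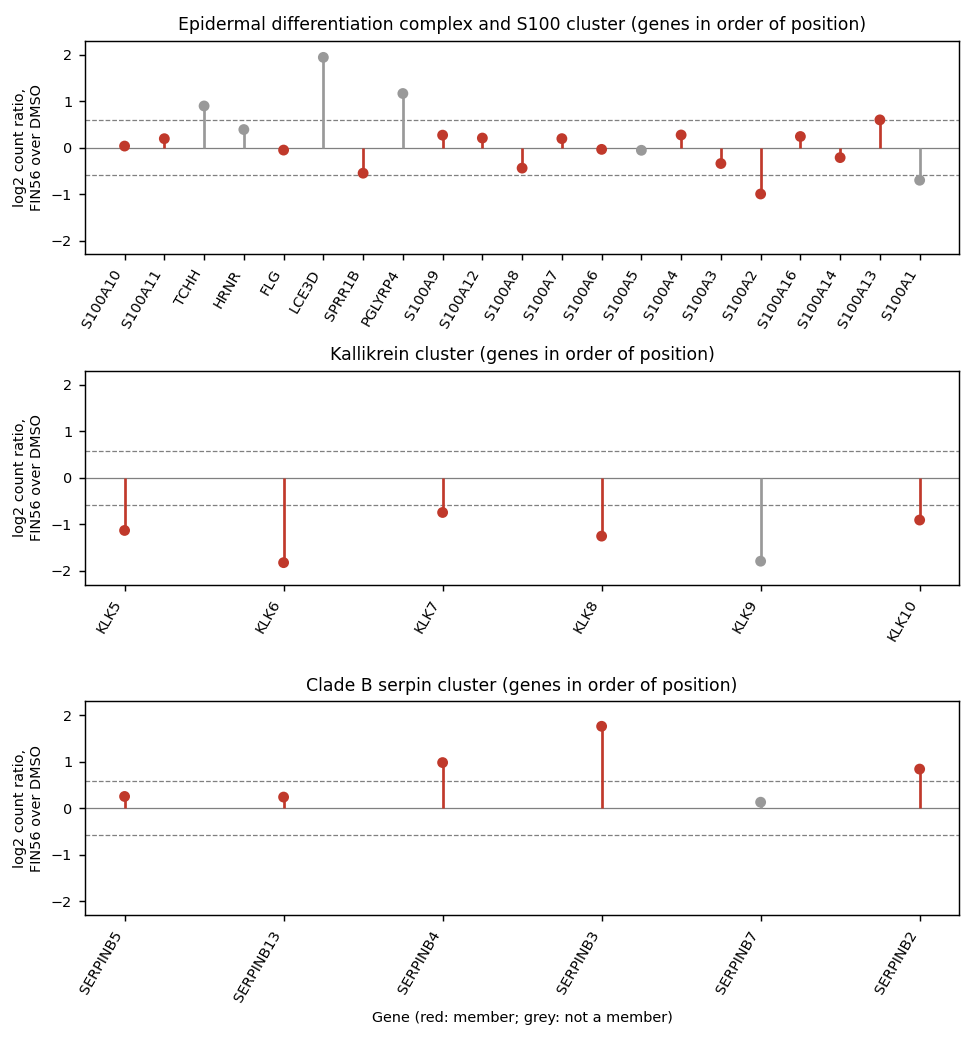
Log2 count ratio, FIN56 over DMSO, of genes with at least 20 expected counts together in the 3 gene clusters, in order of position, in red for the 48 listed genes, in grey for their neighbours and with dashed lines at ratios of 1.5 and 1/1.5. Each kallikrein shown lies below the lower line, whereas the S100 genes on chromosome 1 lie on both sides of 0.

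Among the 11 protease inhibitors, 5 were higher by FPKM ratio (45.45%, against 14.7% of all genes), 6 lay between and none was lower. Of the 9 with at least 10 counts in both libraries, 3 were higher (33.33%, against 7.62% of all genes). SERPINB2, plasminogen activator inhibitor 2, a stress-responsive inhibitor of urokinase, had 15574 counts in DMSO and 29063 in FIN56. Its FPKM was 123 in DMSO and 221 in FIN56, a ratio of 1.80 (interval 1.76 to 1.83), and its share of the inhibitors' summed FPKM was 21.1% in DMSO and 30.9% in FIN56. SLPI, secretory leukocyte protease inhibitor, which blocks elastase and KLK7, had 261 counts in DMSO and 550 in FIN56. Its FPKM was 7.48 in DMSO and 15.1 in FIN56, a ratio of 2.02 (interval 1.74 to 2.36). These 2 genes alone among the inhibitors named with full values were past the threshold.

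The 3 further higher inhibitors had few reads. PI3, elafin, an elastase inhibitor that is itself cross-linked into the envelope, had 1 count in DMSO and 9 in FIN56 (interval of the count ratio 1.198 to 379). SERPINB3 and SERPINB4, the squamous cell carcinoma antigens, are near copies and had 7.39 and 11.61 counts in DMSO and 26.12 and 23.88 in FIN56. Their sum was 19 counts in DMSO and 50 in FIN56, a ratio of 2.53 (interval 1.46 to 4.54), so the direction does not rest on how reads were split between them.

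The remaining inhibitors were near even. The cystatins CSTA, an envelope component that inhibits cathepsins, and CSTB had FPKM values of 195 and 133 in DMSO and 206 and 141 in FIN56, with ratios of 1.06 for both. SERPINB5, maspin, measured 47.2 FPKM in DMSO and 56.2 FPKM in FIN56 (ratio 1.19, interval 1.16 to 1.23). SERPINB1, an inhibitor of neutrophil elastase, measured 74.3 FPKM in DMSO and 74.1 FPKM in FIN56 (ratio 0.997), and 7016 and 6596 counts (count ratio 0.903, interval 0.873 to 0.934). SERPINB13, headpin, had 87 counts in DMSO and 107 in FIN56 and an FPKM of 0.61 and 0.65 (ratio 1.07, interval 0.882 to 1.59). On chromosome 18, where 5 of the serpins lie between 63476958 and 63903888, all 5 had ratios above 1.

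SPINK5, which encodes LEKTI, the inhibitor of KLK5 and KLK7, had 195 expected counts in DMSO and 193 in FIN56. Its FPKM was 0.91 in DMSO and 0.82 in FIN56, a ratio of 0.901 (interval 0.775 to 1.17). The quotient of KLK5 to SPINK5 FPKM was 78.8 in DMSO and 39.5 in FIN56. A long noncoding RNA on the opposite strand of SPINK5 had 122 counts in DMSO and 106 in FIN56. Reads were divided between this RNA and SPINK5 by estimate. The median log2 FPKM ratio of the 11 inhibitors was 0.25, and over the 9 with at least 10 counts in both libraries it was 0.09. Their summed TPM was 870.1 in DMSO and 1095 in FIN56, a ratio of 1.258.

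All 48 genes together held 1.40% of the TPM in DMSO and 1.22% in FIN56, a ratio of 0.869 that turned to 1.10 without S100A2. In bulk RNA, fewer cells that express a gene and less of its RNA per cell cannot be told apart.

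In 8 lists of related genes that are no members, 101 genes were found, 41 of them at 0 in both libraries. Loricrin, the main envelope protein of the epidermis, and the differentiation keratins KRT1 and KRT4 were at 0, as were 15 of 18 late cornified envelope (LCE) genes. Other differentiation genes were well expressed, such as KRT10, the partner of KRT1, at 75.4 FPKM in DMSO and 65.2 FPKM in FIN56 (ratio 0.864), and DMKN, dermokine, at 115 and 104 (ratio 0.906). Of the 34 related genes with at least 10 counts in both libraries, 2 were higher and 5 lower, shares of 5.88% and 14.7%. Over all genes under that filter the shares were 7.62% and 11.1%. TCHH, trichohyalin, had 48 counts in DMSO and 93 in FIN56 (FPKM ratio 1.90), and ABCA12, the transporter that loads lipid into lamellar granules, had 102 and 189 (FPKM ratio 2, interval 1.39 to 2.29). ALOXE3, the lipoxygenase that helps form the lipid envelope, had 996 counts in DMSO and 506 in FIN56 and an FPKM of 5.80 and 2.87 (ratio 0.495, interval 0.438 to 0.544). KLK9 was the other lower gene with at least 100 counts. The 3 lower genes with fewer counts were named after their values were seen. S100A1 had 38.15 counts in DMSO and 24.40 in FIN56, TGM4 had 29 and 13, and WFDC5, from the list of inhibitors and proteases, had 78 and 20.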

How the data were processed

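RNA was collected with TRIzol and libraries were made with a TruSeq Stranded mRNA kit. The methods describe tumor samples, and the same steps were taken to hold for HSC-3. By those methods, reads were trimmed with AfterQC, aligned to GRCh38 (Ensembl release 94) with STAR 2.6.1a and quantified with RSEM 1.3.1. The submitters' processing notes also name FastQC 0.11.7. The expected counts deposited by the authors were not normalized and need not be whole. The FPKM values deposited by the authors were scaled for effective gene length and library size, with 2 decimals kept. In the deposited TPM values each library has the same sum. Deposited rlog values, on a log2 scale, were made with DESeq2 1.26.0. Names tied all 8 per-sample columns to a library.

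The members, related lists and markers were chosen with earlier results of these data known. Genes with at least 100 expected counts together were named with values, other members with counts, and related genes if they had 100 counts together and passed a threshold. Related genes named besides (ANXA1, ANXA2, loricrin, KRT1, KRT4, KRT10, DMKN, KLK1, KLK14) were chosen after their values were seen. The FPKM ratio was compared with 1.5 and 1/1.5, after the criterion of the study, in hundredths of FPKM. Non-whole expected counts were rounded for the intervals, which were set at 95%. A count was called whole within 0.005. Group sums used TPM. With 70184517 and 73062209 expected counts, the interval of SERPINB2 spans 1.76 to 1.83 and that of KLK7 0.339 to 1.03. Alternatives were TPM, rlog values, counts scaled by library totals, by TMM (edgeR 4.0.16) or by size factors (DESeq2 1.42.0), filters on low values, pseudocounts of 0.1 and 1 FPKM, and a threshold of 2. Positions came from GENCODE 44, in which all 48 identifiers were found, and promoters from RefSeq GRCh38.p14. Scripts ran in Python 3.11.15 with scipy 1.17.1 and R 4.3.3, and were tested on simulated data.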

Additional observations from a re-analysis of the deposited data

How the results depend on the processing

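With 1 library per condition nothing could be left out, and the spread between cultures is unknown. No paired analysis was possible because a single library stands for each treatment. The rlog scale draws differences toward 0, here even for genes with many reads. The ratio of S100A2 went from 0.494 to 0.749 with rlog values, and that of KLK5 from 0.452 to 0.731. The share of all genes past the thresholds was counted only for the main setting and for at least 10 counts in both libraries. It was not counted with rlog values or under the other settings. Whether the counts of members below changed more than those of all genes is therefore not known for those settings. The 8 higher members became 0 with rlog values, 3 where FPKM had to reach 1 in both libraries, 4 with at least 10 counts in both, 3 with at least 50 together, 3 with a pseudocount of 1 FPKM and 5 with a threshold of 2. The 10 lower members became 0 with rlog values, 4 where FPKM had to reach 1, 6 with at least 50 counts together, 6 with a pseudocount of 0.1 FPKM and 4 with one of 1 FPKM. With counts in place of FPKM, under each of the 3 scalings, SBSN was no longer higher, LY6D and TGM5 were no longer lower, and TGM1 and TGM2 became lower. All 6 kallikreins stayed below 1 under TPM, rlog, count scalings and pseudocounts, although a pseudocount cannot move a ratio across 1. Past the threshold were 5 with a pseudocount of 0.1 FPKM, 3 with one of 1 FPKM and 0 with rlog values. Their median log2 ratio went from -1.15 to -0.18 with rlog values and -0.54 with a pseudocount of 1 FPKM. The S100 median went from 0.19 to 0.22 with TPM, 0.23 with size factors, 0.11 where FPKM had to reach 1 or counts 50 together, 0.09 with a pseudocount of 1 FPKM and 0.01 with rlog values. The inhibitor median went from 0.25 to 0.0453 with rlog values, 0.0916 with at least 10 counts in both and 0.0901 with 50 together. For single members, 346 of 394 alternative values stayed within the counting interval after it was centred on the FPKM ratio, and 48 lay outside it. The filters on FPKM, on 10 counts and on 50 counts leave a member's ratio unchanged. Their 26, 35 and 32 values among the 394 could therefore not lie outside. Scaling by library totals and by TMM gave nearly the same values. A reversal was counted only for members called higher or lower, and 0 of their values reversed. Filters and pseudocounts cannot move a ratio across 1, so those settings could not give a reversal. Members between the thresholds could change side, as PPL did from 0.9985 to 1.021 and SERPINB1 from 0.9974 to 1.019 with TPM. The median of all genes moved by at most 0.03 on the log2 scale under any scaling.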
